A study of Mus musculus with 6 samples.

Results

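The transcripts described here encode 9 nuclear receptors through which the mouse liver reads bile acids, foreign compounds and hormones: Nr1h4 (FXR), Nr0b2 (SHP), Nr1i2 (PXR), Nr1i3 (CAR), Rxra (RXRα), Esr1 (estrogen receptor α), Nr3c1 (the glucocorticoid receptor), Thrb (thyroid hormone receptor β) and Rora (RORα). They were taken by gene symbol from a table of 17975 genes, by a rule that names no measured value. The set was nevertheless chosen with earlier results of these data known. All 9 were found in the table and passed the filter on low counts. RNA was sequenced from whole liver of 3 WT mice and of 3 Hom mice, which are homozygous hepatocyte NEK7 knockouts (NEK7 fl/fl-Alb-Cre+), with 1 liver per mouse and no treatment. Cre was driven by the albumin promoter, which is active in hepatocytes and in fetal liver progenitors of hepatocytes and bile duct cells. The floxed and Cre lines were on a C57BL/6 background. The paper states that both sexes were used in its knockout experiments, and the ages it gives are not tied to the sequenced livers. Whether the WT mice carried the floxed allele or Cre, and the age and sex of each sequenced mouse, are not given in the sources used here.

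Nuclear receptors are transcription factors whose activity is set by small fat-soluble molecules. FXR binds bile acids and switches on SHP, a receptor without a DNA-binding domain that in turn holds down bile acid synthesis. PXR and CAR sense drugs, steroids and bilirubin and induce the enzymes and pumps that clear them, and RXRα is the partner that FXR, PXR, CAR and the thyroid hormone receptors need to bind DNA. The glucocorticoid and estrogen receptors bind DNA as homodimers, whereas RORα binds as a monomer and competes with the REV-ERB receptors at genes of the circadian clock.

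The estimated read counts summed to about 19349400 to 19477000 per WT liver and 19392600 to 19730200 per Hom liver, so depth was nearly equal. Nek7 had 1127, 1077 and 1036 counts in the WT livers and 310, 439 and 387 in the Hom livers, a log2 fold change of −1.99 ± 0.10 (SE, adjusted p = 1.59e-04, by the quasi-likelihood test of edgeR with p-values adjusted over all genes by the Benjamini-Hochberg method). Of 13805 genes tested with that method, 41.7% differed between the groups at an adjusted p under 0.05, with 20.1% lower and 21.5% higher in Hom livers. Levels are given as CPM, read counts scaled by library size and TMM factors, which were 0.81 to 0.92 in WT and 1.09 to 1.23 in Hom livers. These factors assume that most genes do not differ, and they set the median log2 fold change of all tested genes near 0. Scaling by library size alone moved that median to 0.45, and setting hepatocyte marker genes equal moved it to 0.77. Some of these markers, such as Cyp3a11, Ttr and Rbp4, also belong to the lists of receptor targets or ligand genes. That scaling thus shares genes with what it scales. The receptors, and the named genes past the threshold, are pointed out where their direction turned under another scaling. Named genes that did not pass were not followed in this way. The livers WT 1 and Hom 1 stood apart within their groups: 4 Y-linked genes summed to 7.14 CPM in Hom 1 and to between 127 and 137 CPM in the other 5 livers, and 14 male-biased liver genes summed to 5003 CPM in WT 1 and to 44198 and 48152 CPM in the other WT livers.

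Nr0b2 and Nr1i3 had the largest decreases among the 9 receptors. Nr0b2 lies at chr4:133553376-133556536 and Nr1i3 at chr1:171213970-171220701, both on the plus strand (GENCODE M21 on GRCm38). Because these were the members that were lower under every scaling, the 250 bases before the start of each, from RefSeq on GRCm38.p6, are shown, read 5′ to 3′ on the gene's strand. Capitals mark CACGTG, the E-box letters that CLOCK and BMAL1 bind, and TCAAGG, the core letters of sites for LRH-1 (Nr5a2), the factor that SHP is best known for restraining. The motifs were chosen with the sequences in view.
Nr0b2, chr4:133553126-133553375: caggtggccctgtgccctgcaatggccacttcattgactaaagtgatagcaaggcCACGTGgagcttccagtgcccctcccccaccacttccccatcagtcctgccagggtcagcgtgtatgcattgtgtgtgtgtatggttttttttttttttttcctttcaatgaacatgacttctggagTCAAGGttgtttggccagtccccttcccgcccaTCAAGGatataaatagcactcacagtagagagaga
Nr1i3, chr1:171213720-171213969: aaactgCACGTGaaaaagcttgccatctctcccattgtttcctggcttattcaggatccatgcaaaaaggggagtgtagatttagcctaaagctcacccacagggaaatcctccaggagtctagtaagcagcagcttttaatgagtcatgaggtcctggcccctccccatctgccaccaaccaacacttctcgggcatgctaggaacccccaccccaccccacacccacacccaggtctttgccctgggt

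In the Nr0b2 window CACGTG lies at −195 to −190 from the start, and TCAAGG lies at −68 to −63 and −35 to −30. The Nr1i3 window holds CACGTG at −244 to −239 and no TCAAGG. Searched on both strands in windows of the same length, CACGTG was in 6.02% of 32851 RefSeq promoters and TCAAGG in 12.5%. The receptor half-site AGGTCA was in 14.0% of them. Promoters were matched for 8 of the 9 genes, all but Nr3c1. These 8 genes have 11 windows in the table, with 2 each for Esr1, Rxra and Thrb, so the fairer comparison is by gene: CACGTG was in any window of 6.86% of 27025 genes, TCAAGG of 14.1% and AGGTCA of 15.8%. Of the 8, CACGTG was found in Nr0b2, Nr1i3 and Thrb, TCAAGG in Nr0b2 and Thrb, and AGGTCA in Nr1h4, Rxra and Thrb. In Thrb the AGGTCA match overlaps the TCAAGG match, and its CACGTG match lies in the other window. A match in these letters is a description and no binding was measured here.

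FXR and SHP, the bile acid sensor and the repressor it induces, did not move alike. Nr1h4 was at 94.8, 94.3 and 91.2 CPM in WT livers 1, 2 and 3 and at 84.5, 82.8 and 76.3 CPM in Hom livers 1, 2 and 3. The groups did not overlap, but the difference was small, with a log2 fold change of −0.20 ± 0.07 (SE, 95% interval −0.38 to −0.03 before adjustment), and it missed the threshold (adjusted p = 0.0630). Its sign also turned with the scaling, to 0.25 with library size alone and to 0.57 with hepatocyte markers set equal. Nr0b2 was at 71.3, 56.5 and 61.3 CPM in the WT livers and at 24.2, 20.8 and 29.3 CPM in the Hom livers. The highest Hom liver was thus well under the lowest WT liver, and the Hom mean was 39.3% of the WT mean. The log2 fold change was −1.35 ± 0.15 (SE, adjusted p = 0.00101, edgeR). It was between −1.26 and −0.58 under the 4 other scalings and past the threshold in each of them, as it was with any single liver left out. Without both WT 1 and Hom 1, it was −1.22 (adjusted p = 0.00462). In bulk RNA, fewer cells of a type and less RNA per cell cannot be told apart.

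The drug and bilirubin sensors PXR and CAR were both lower with TMM factors, CAR by more. Nr1i2 was tightly grouped at 100.5, 98.6 and 99.0 CPM in the WT livers and was at 83.1, 61.1 and 65.2 CPM in the Hom livers. Every Hom liver was under every WT liver, and the log2 fold change was −0.51 ± 0.12 (SE, adjusted p = 0.0156). With library size alone it shrank to −0.07, and with hepatocyte markers set equal it turned to 0.25. Without Hom 3 the adjusted p was 0.0591. Nr1i3 was at 92.1, 89.1 and 82.0 CPM in the WT livers and at 44.8, 43.0 and 41.7 CPM in the Hom livers. The Hom livers lay within a narrow band at 49.2% of the WT mean, and the log2 fold change was −1.02 ± 0.08 (SE, adjusted p = 3.73e-04). Nr1i3 stayed lower with library size alone, at −0.57 (adjusted p = 0.00500). With hepatocyte markers set equal its log2 fold change was −0.25 and no longer past the threshold (adjusted p = 0.0811).

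RXRα, the shared partner, had the highest level of the 9. Rxra was at 495, 513 and 504 CPM in the WT livers and at 405, 362 and 375 CPM in the Hom livers. The groups did not overlap, and the log2 fold change was −0.41 ± 0.10 (SE, adjusted p = 0.0182). This call was the least stable of the 6: with WT 2, WT 3, Hom 2 or Hom 3 left out in turn, the adjusted p was between 0.0554 and 0.0700. The sign turned to 0.05 with library size alone and to 0.36 with hepatocyte markers set equal.

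The receptors for steroid hormones did not pass the threshold with TMM factors. Nr3c1 was at 55.4, 63.0 and 69.1 CPM in the WT livers and at 86.6, 74.0 and 69.3 CPM in the Hom livers. The lowest Hom liver was just above the highest WT liver, and the log2 fold change was 0.29 ± 0.12 (SE, adjusted p = 0.0863, 95% interval 0.01 to 0.58 before adjustment). It was past the threshold with upper-quartile factors (0.38, adjusted p = 0.0370), library size alone (0.75) and hepatocyte markers set equal (1.06). Esr1 was at 16.3, 19.8 and 14.6 CPM in the WT livers and at 25.2, 15.9 and 12.6 CPM in the Hom livers. Hom 1 was the highest and Hom 3 the lowest of all 6, so the groups overlapped fully. The log2 fold change was 0.08 ± 0.26 (SE, adjusted p = 0.817), and its 95% interval, −0.53 to 0.70, leaves a moderate difference in either direction possible. Without Hom 1, the liver with few Y-linked transcripts, it was −0.25 (adjusted p = 0.309).

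The thyroid hormone receptor and RORα were lower with TMM factors. Thrb was at 34.8, 38.2 and 39.9 CPM in the WT livers and at 25.4, 26.9 and 30.6 CPM in the Hom livers. The groups did not overlap, and the log2 fold change was −0.44 ± 0.10 (SE, adjusted p = 0.0120). Without Hom 2 the adjusted p was 0.0505, and the sign turned to 0.02 with library size alone and 0.33 with hepatocyte markers set equal. Rora was at 80.9, 80.3 and 69.2 CPM in the WT livers and at 53.4, 47.9 and 61.9 CPM in the Hom livers. All Hom livers were under all WT livers, and the log2 fold change was −0.50 ± 0.12 (SE, adjusted p = 0.0146). The call was lost without WT 2 (adjusted p = 0.0528) and without both WT 1 and Hom 1 (0.0606). The log2 fold change of Rora was −0.05 with library size alone and 0.28 with hepatocyte markers set equal.

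**Figure D1:**
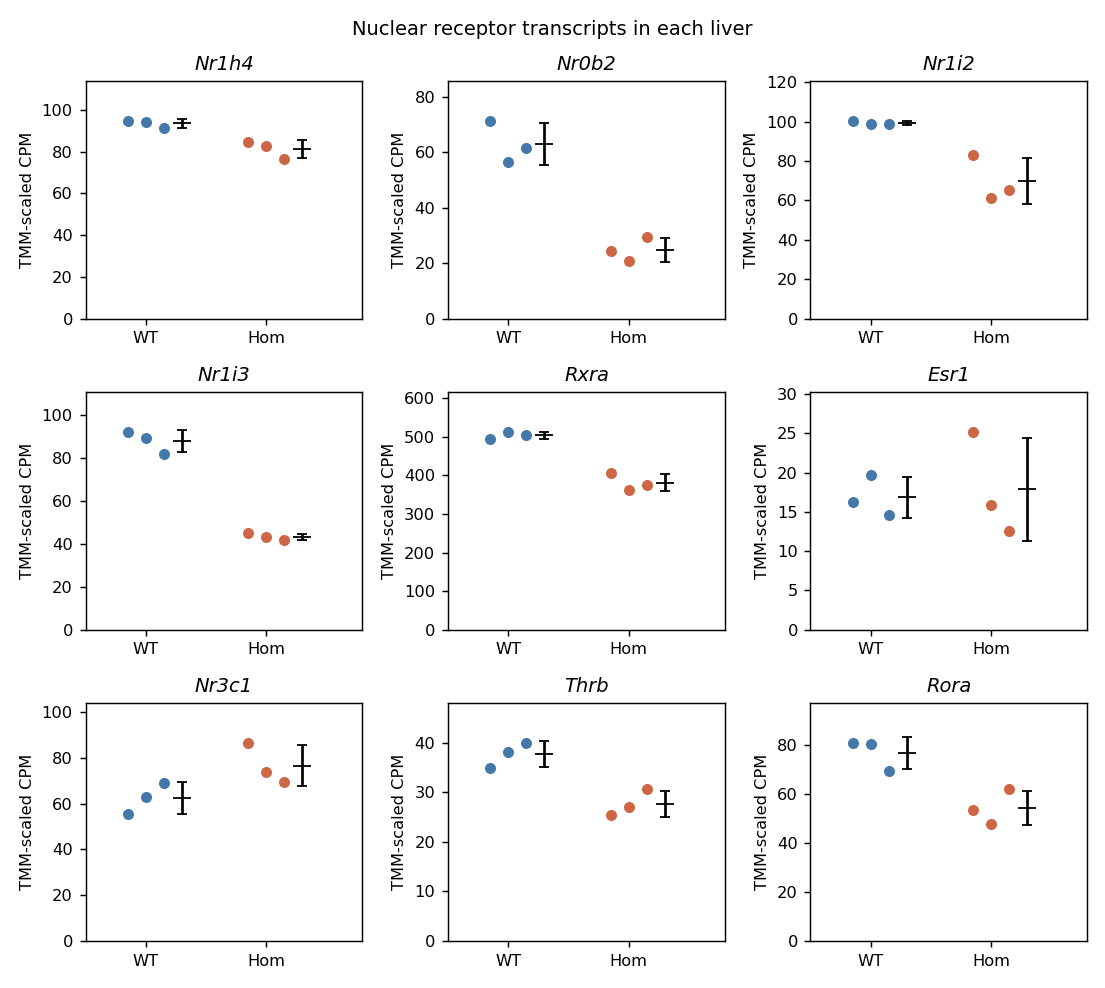
TMM-scaled CPM of each receptor gene (vertical axes from 0, a separate scale in each panel) in WT and Hom livers, with points for the single livers and a bar for the mean ± SD of 3 mice. The Hom points lie under all WT points for Nr1h4, Nr0b2, Nr1i2, Nr1i3, Rxra, Thrb and Rora, above them for Nr3c1, and among them for Esr1.

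Counted together, 6 of the 9 receptors were lower in Hom livers and 0 were higher (edgeR, adjusted p under 0.05), beside 20.1% lower and 21.5% higher among all tested genes. DESeq2 also called 6 lower and 0 higher, beside 20.7% lower and 22.3% higher of all tested genes. At an unadjusted p under 0.05, 7 were lower and 1, Nr3c1, was higher, a cut at which the share of all genes was not computed. The median log2 fold change of the 9 was −0.44, beside −0.0018 for all tested genes. In TMM-scaled CPM the groups did not overlap for 7 lower and 1 higher receptor, where 27% and 28.7% of all tested genes, or 55.6% in all, were so separated. The exact two-sided permutation test gave p = 0.1 for each of these 8 genes, the smallest that 3 mice against 3 allow, and p = 0.9 for Esr1. With library size alone 2 receptors, Nr0b2 and Nr1i3, were lower and 1, Nr3c1, was higher. With hepatocyte markers set equal 1, Nr0b2, was lower and 4 were higher, namely Nr1h4, Rxra, Esr1 and Nr3c1. Of all tested genes, 4.65% were lower and 47.6% higher with library size alone, and 2.28% were lower and 72.9% higher with hepatocyte markers set equal, so the shares of the 9 that were higher lay under those of all genes.

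**Figure D2:**
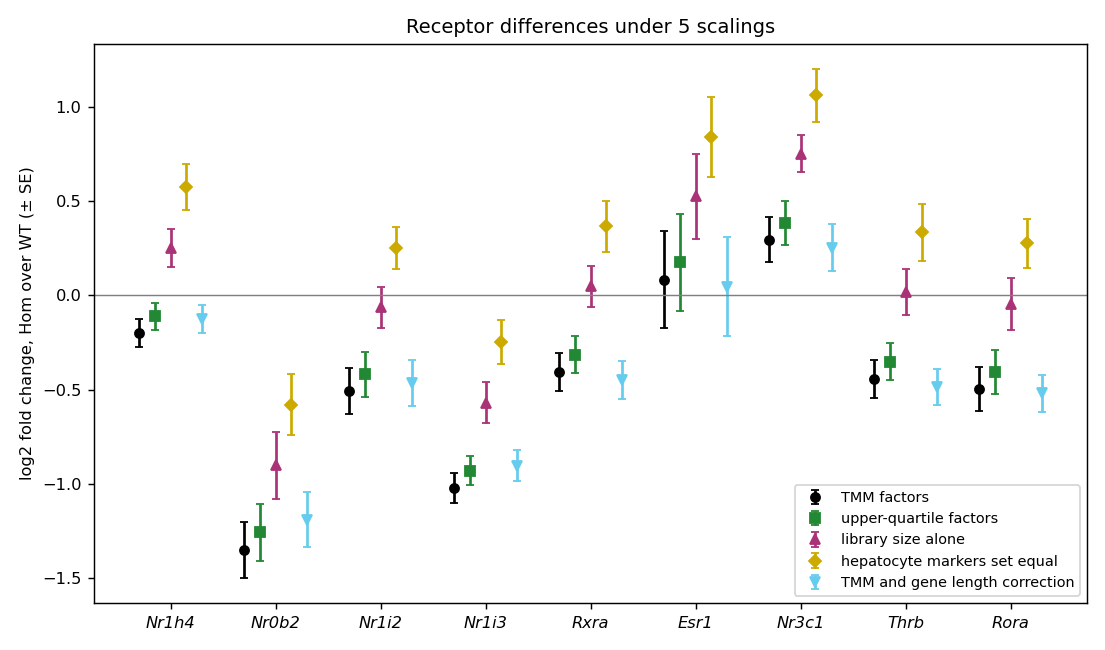
Log2 fold change (Hom over WT, ± standard error) of each receptor under 5 scalings, each with 3 livers per group. Nr0b2 and Nr1i3 lie under 0 and Esr1 and Nr3c1 above 0 under all 5, while Nr1h4, Nr1i2, Rxra, Thrb and Rora cross 0.

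Markers of the liver's cell types moved along with these results. The 30 hepatocyte markers summed to 232816 to 273158 CPM in WT and 143685 to 205806 CPM in Hom livers, and 18 of the 30 were lower and 2 higher (median log2 fold change −0.69). The 12 bile duct markers summed to 69.8 to 109 CPM in WT and 716 to 969 CPM in Hom livers and all 12 were higher. For the 15 stellate cell markers the sums were 385 to 452 and 813 to 919 CPM (9 higher, 2 lower), and for the 14 macrophage markers 369 to 892 and 676 to 899 CPM (4 higher, 2 lower). The 12 endothelial markers summed to 264 to 356 CPM in WT and 199 to 204 CPM in Hom livers (6 lower). The 9 lymphocyte markers summed to 10.5 to 23.1 and 24.7 to 44.4 CPM (2 of 6 tested higher), and the 12 proliferation genes to 31.2 to 44.8 and 56.7 to 92.6 CPM (10 higher). With library size alone and hepatocyte markers set equal, the hepatocyte median was −0.23 and 0.08 and the endothelial median −0.08 and 0.25, while the medians of the other 5 lists stayed above 0. Some counts rested on single livers: 11 hepatocyte markers were lower without Hom 3, 9 macrophage markers were higher without WT 1, 2 macrophage and 0 lymphocyte markers were higher with WT 2, WT 3, Hom 2 or Hom 3 left out in turn, and 4 and 6 proliferation genes were higher without Hom 2 and Hom 3. Without both WT 1 and Hom 1, 9 macrophage and 6 lymphocyte markers were higher. No marker of these lists was at 0 in all livers of a group, and the part of cell composition in the receptor values was not tested.

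Levels can be compared between receptors only per transcript length, for which the authors' TPM values were used. In WT livers Rxra led with 153 ± 15.2 TPM (SD, n = 3), followed by Nr1i3 (88.4 ± 12.9), Nr0b2 (74.4 ± 17.6), Nr1h4 (70.9 ± 9.27) and Nr1i2 (64.5 ± 8.48). The levels of neighbours among these last 4 overlapped between livers. Nr3c1 (14.0 ± 0.76), Rora (10.6 ± 1.68), Thrb (8.30 ± 0.10) and Esr1 (3.93 ± 0.62) followed with no overlap between neighbours. In Hom livers Rxra again led with 178 ± 2.48 TPM. Nr1h4 came next (94.1 ± 6.58), then Nr1i2 (70.1 ± 7.15) and Nr1i3 (67.3 ± 3.15), whose ranges overlapped, and Nr0b2 came after these (44.5 ± 8.10), under every liver's value for those before it. The order of the lowest 4 was the same, with 26.5 ± 1.70 TPM for Nr3c1, 11.6 ± 1.58 for Rora, 9.75 ± 1.35 for Thrb and 6.34 ± 1.79 for Esr1. In Hom livers the ranges of Rora and Thrb overlapped. TPM has a fixed total in each liver and so lacks the TMM correction, and on it 2 receptors were lower (Nr0b2, Nr1i3) and 4 higher (Nr1h4, Rxra, Esr1, Nr3c1) with no overlap between the groups. The share of all genes so separated in TPM was not computed, so these counts have no background beside them. With library size alone, which also lacks that correction, edgeR called 4.65% of all tested genes lower and 47.6% higher. FPKM gave the same order in both groups.

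**Figure D3:**
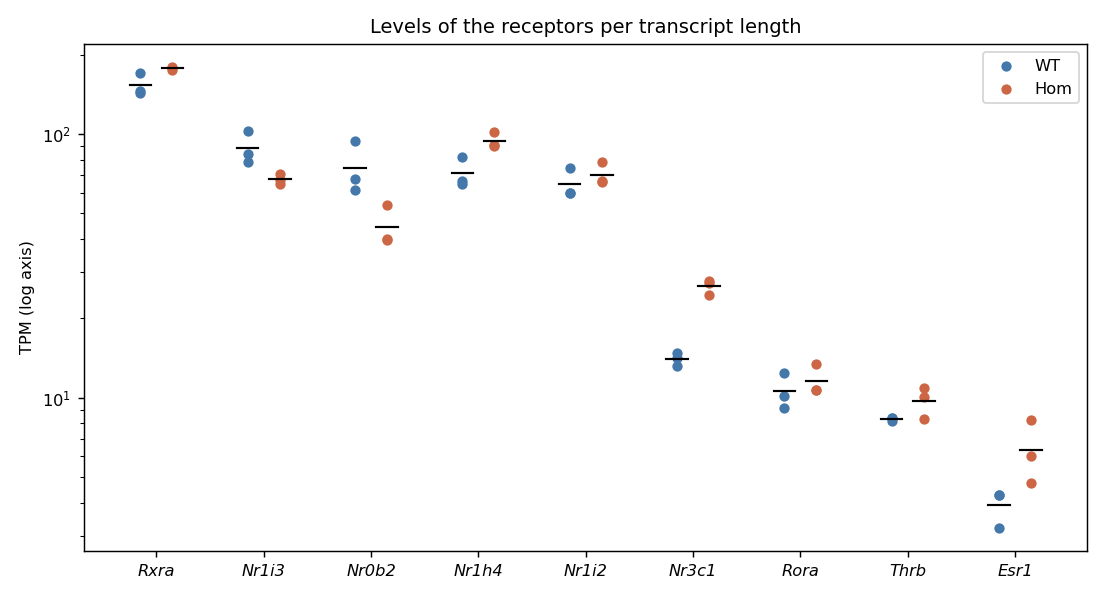
TPM of each receptor (logarithmic axis) in the 3 WT and 3 Hom livers, with points for livers and lines for group means, ordered by the WT mean. Nr0b2 falls from the third place in WT to the fifth in Hom livers, and Nr1h4 rises from the fourth to the second.

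Shares within a liver do not depend on how libraries are scaled. The 9 receptors summed to between 449 and 563 TPM in each of the 6 livers. Nr0b2 made up 16.8%, 13.6% and 15.0% of that sum in the WT livers and 7.97%, 7.73% and 10.6% in the Hom livers. Nr1i3 fell from 18.1% ± 0.57 to 13.3% ± 0.51 (SD, n = 3), with no overlap. Nr1h4 rose from 14.5% ± 0.15 to 18.5% ± 1.18, Rxra from 31.5% ± 1.00 to 34.98% ± 0.17 and Nr3c1 from 2.90% ± 0.38 to 5.21% ± 0.36, again with no overlap. The exact permutation test gave p = 0.1 for each of these 5 shares. The share of Nr1i2 was 13.2% ± 0.07 in WT and 13.8% ± 1.54 in Hom livers, and those of Thrb, Rora and Esr1 overlapped as well. Shares add to a fixed sum, so a decrease in some members raises the others.

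Ratios between related receptors are likewise free of the scaling. There was 1.16, 0.925 and 1.04 times as much Nr0b2 as Nr1h4 in the WT livers and 0.445, 0.389 and 0.594 times as much in the Hom livers. Less SHP transcript was thus present for each FXR transcript in every Hom liver. Nr1i3 stood at 1.37 ± 0.05 times Nr1i2 in WT and at 0.969 ± 0.13 times in Hom livers (SD, n = 3). Rxra, set against the summed TPM of its partners among the 9, Nr1h4, Nr1i2, Nr1i3 and Thrb, was at 0.663 ± 0.02 in WT and 0.736 ± 0.02 in Hom livers. Partners outside the 9, such as Thra and Rara, were left out of this sum. None of the 3 ratios overlapped between groups (exact two-sided permutation p = 0.1 each, the smallest the design allows).

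Among genes outside the receptor family, those that followed Nr0b2 most closely over the 6 livers were Prodh2 and Notum, at root mean square distances of 0.126 and 0.141 on the mean-centred log2 scale. Nr1i3 was followed most closely by Rbp4 (0.062) and Rbpms2 (0.064), and Nr1i2 by Itih1 (0.038) and Tmem248 (0.040). For Rxra the nearest genes were Ndufs4 (0.021) and Drap1 (0.024), for Thrb Slc25a17 (0.037) and Mrpl21 (0.040), and for Rora Chd7 (0.056) and Dock4 (0.067). These were picked from 8093 genes with a mean of at least 10 CPM, and the distances are a description.

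The bile acid synthesis and uptake genes that FXR and SHP hold down split by gene. Cyp7a1, the rate-limiting enzyme of bile acid synthesis, was at 28.6, 35.2 and 70.8 CPM in the WT livers and at 189, 246 and 151 CPM in the Hom livers. All Hom livers were above all WT livers, with a log2 fold change of 2.12 ± 0.36 (SE, adjusted p = 0.00457). Cyp8b1, which sets the share of cholic acid, was at 117, 413 and 488 CPM in the WT livers and at 2.43, 20.6 and 20.9 CPM in the Hom livers, a log2 fold change of −4.53 (adjusted p = 0.00749). Slc10a1, the NTCP transporter that takes bile acids up from blood, was lower as well, by a log2 fold change of −1.54 (adjusted p = 4.98e-04). Each of these 3 directions and calls held under the 4 other scalings and with any single liver left out. Thus 2 genes of this list of 3 were lower and 1 was higher while Nr0b2 was lower.

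Of 9 tested genes that FXR is known to induce, 4 were lower (Nr0b2 itself, Slc27a5, Abcb11 and Baat) and 1 was higher, and the list's median log2 fold change was −0.42. That median was −0.10 without WT 1 and −0.18 without Hom 1. Slc51b, a subunit of the basolateral bile acid exporter, was at 0.67, 0.51 and 0.43 CPM in the WT livers and at 9.71, 5.81 and 6.21 CPM in the Hom livers, a log2 fold change of 3.73 (adjusted p = 4.81e-04). The ligase Slc27a5, which activates bile acids for conjugation, had a log2 fold change of −1.07 (adjusted p = 8.62e-04) and kept its sign under all 4 other scalings and its call in 3. Abcb11, the canalicular bile salt export pump, was at 759, 867 and 843 CPM in the WT livers and at 467, 542 and 647 CPM in the Hom livers, a log2 fold change of −0.58 (adjusted p = 0.0231). The Abcb11 call was lost without WT 2, WT 3 or Hom 2, and with hepatocyte markers set equal the signs of Abcb11 and Baat turned. With library size alone and with hepatocyte markers set equal, the list's median turned to 0.04 and 0.39. Of 13 tested bile acid synthesis genes, 9 were lower and 1, Cyp7a1, was higher, with a median of −0.91, which stayed under 0 at −0.43 and −0.11 under those scalings. Hsd3b7, an early enzyme of the pathway, had a log2 fold change of −1.40 (adjusted p = 7.95e-04).

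Of 18 tested genes that PXR and CAR induce, 4 were lower (Ces2a, Ugt1a1, Aldh1a1 and Abcc2) and 2 were higher (Gsta1 and Abcb1a), and 12 did not pass. These shares, 22.2% lower and 11.1% higher, stand beside 20.1% and 21.5% of all tested genes. The list's median log2 fold change was −0.11, turning to 0.36 with library size alone and 0.68 with hepatocyte markers set equal, under which the sign of Abcc2 turned too. The median was −0.004 without WT 3 and −0.028 without Hom 3. The Abcc2 call was lost without WT 2, WT 3, Hom 1 or Hom 3. The esterase Ces2a was at 384, 422 and 411 CPM in the WT livers and at 127, 140 and 104 CPM in the Hom livers, a log2 fold change of −1.72 (adjusted p = 3.84e-04). Ugt1a1, which conjugates bilirubin, had a log2 fold change of −0.97 (adjusted p = 0.00499), keeping its sign under all 4 other scalings and its call in 3. The glutathione transferase Gsta1 was at 4.58, 3.34 and 8.79 CPM in the WT livers and at 28.6, 44.1 and 61.5 CPM in the Hom livers, a log2 fold change of 3.00 (adjusted p = 0.00207). The efflux pump Abcb1a had a log2 fold change of 2.23 (adjusted p = 0.00403). The classic reporters of the pair did not pass: Cyp3a11, induced by PXR, had a log2 fold change of −0.27 (adjusted p = 0.354), and Cyp2b10, induced by CAR, was at 16.6, 16.0 and 11.8 CPM in the WT livers and at 11.2, 0.41 and 1.77 CPM in the Hom livers (adjusted p = 0.166). For Cyp2b10 the lone high Hom value was that of Hom 1.

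Of 11 tested genes induced by glucocorticoids, 6 were lower and 2 were higher, and their median log2 fold change of −0.99 stayed under 0 at −0.56 with library size alone and −0.25 with hepatocyte markers set equal. Zbtb16 was at 133, 153 and 136 CPM in the WT livers and at 10.3, 21.8 and 17.2 CPM in the Hom livers, a log2 fold change of −3.09 (adjusted p = 4.76e-04). Tsc22d3, which encodes the glucocorticoid-induced leucine zipper, was at 246, 234 and 187 CPM in the WT livers and at 53.1, 36.0 and 72.6 CPM in the Hom livers, a log2 fold change of −2.05 (adjusted p = 0.00154). Both calls held under all 4 other scalings, while the receptor Nr3c1 itself was not lower in any of them. The higher genes were the metallothioneins Mt1 and Mt2, which also respond to metals and inflammation. Mt1 was at 82.3, 63.9 and 18.1 CPM in the WT livers and at 977, 153 and 216 CPM in the Hom livers, so Hom 1 stood far above the rest, and its call was lost without Hom 1, WT 2 or WT 3. Mt2 had a log2 fold change of 3.02, and its call was lost without WT 2 or WT 3.

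Of the genes that supply the liver with active glucocorticoid, 3 of 5 were lower and 0 higher. Hsd11b1, which regenerates corticosterone inside the cell, was at 602, 583 and 542 CPM in the WT livers and at 170, 159 and 142 CPM in the Hom livers, a log2 fold change of −1.87 (adjusted p = 2.05e-04). Serpina6, the corticosteroid-binding globulin of plasma, had a log2 fold change of −1.34 (adjusted p = 0.00272) and was called under 3 of the 4 other scalings. H6pd, which makes the cofactor for Hsd11b1, had a log2 fold change of −0.52 and turned sign under 1 of the 4 other scalings. Akr1d1 (−0.19, adjusted p = 0.246) and Srd5a1 (−0.71, adjusted p = 0.123), which inactivate steroids, did not pass. The list's median was −0.71, and 0.09 with hepatocyte markers set equal.

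Thyroid hormone targets differed in direction, with 28.6% lower and 14.3% higher, beside 20.1% and 21.5% of all tested genes. Of 7 tested, 2 were lower, Klf9 (log2 fold change −1.04, adjusted p = 0.00585) and Gpd2 (−0.76, adjusted p = 0.00361), and 1 was higher, Bcl3 (0.79, adjusted p = 0.00411). Their median was −0.76, and 0.03 with hepatocyte markers set equal, under which the sign of Gpd2 turned too. Klf9, also induced by glucocorticoids, was called under 3 of the 4 other scalings. Of 7 genes that carry, take up or convert thyroid hormone, 4 were lower and 0 higher, with a median of −0.56 that turned to 0.20 with hepatocyte markers set equal. Ttr, the plasma carrier transthyretin and also 1 of the hepatocyte markers, had a log2 fold change of −1.85, and the uptake carrier Slco1b2 one of −1.03, called under 2 of the 4 other scalings with no change of sign.

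The clock genes that RORα activates and REV-ERB represses were mostly lower. Of 7 tested, 5 were lower (Npas2, Nfil3, Arntl, Cry1 and Clock) and 1, Nr1d2, was higher, and their median log2 fold change of −0.96 stayed under 0 at −0.52 and −0.19 with library size alone and hepatocyte markers set equal. Nfil3 was at 71.9, 49.0 and 52.5 CPM in the WT livers and at 12.7, 11.1 and 20.7 CPM in the Hom livers, a log2 fold change of −1.96 (adjusted p = 0.00188). Clock was at 57.6, 56.3 and 53.2 CPM in the WT livers and at 33.1, 30.4 and 36.6 CPM in the Hom livers, a log2 fold change of −0.74 (adjusted p = 0.00144) that turned to 0.03 with hepatocyte markers set equal. Nr1d2, which encodes REV-ERBβ, had a log2 fold change of 0.68 (adjusted p = 0.0402), and its call was lost without WT 2 or any Hom liver. These genes cycle through the day, and the hour at which each liver was taken is not given in the sources used here.

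Of 6 tested genes that make or clear estrogens, 5 were lower and 1 was higher. Hsd17b2, which inactivates estradiol, had a log2 fold change of −1.48 (adjusted p = 0.00203), and Hsd17b6 one of −1.38 (adjusted p = 0.00145). The higher gene was the estrogen sulfotransferase Sult1e1, at 0.11, 0.58 and 0 CPM in the WT livers and at 32.6, 1.48 and 6.21 CPM in the Hom livers, and its call was lost without WT 1 or WT 3. The male-biased list, which estrogens and growth hormone influence, held 9 lower and 0 higher of 13 tested genes, and the female-biased list 3 higher and 0 lower of 7. Of the female-biased genes, 1 was higher without WT 2, and their median log2 fold change of 1.69 turned to −0.17 without Hom 1. The Y-linked list had 0 of 4 genes past the threshold. Sex-biased genes moved with both the genotype and the livers that stood apart, and their part in the Esr1 values was not tested.

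For the ligand of RXRα and the retinoic acid receptors, 4 of 11 tested retinoid genes were lower and 2 were higher, with a median of −0.22 that turned to 0.21 with library size alone. These shares were 36.4% lower and 18.2% higher, beside 20.1% and 21.5% of all tested genes. Rdh7 had a log2 fold change of −1.18 (adjusted p = 8.06e-04) and the plasma retinol carrier Rbp4 one of −1.04 (adjusted p = 0.00164), called under 3 of the 4 other scalings. Aldh1a2, which makes retinoic acid, had a log2 fold change of 3.68 (adjusted p = 0.00116).

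**Figure D4:**
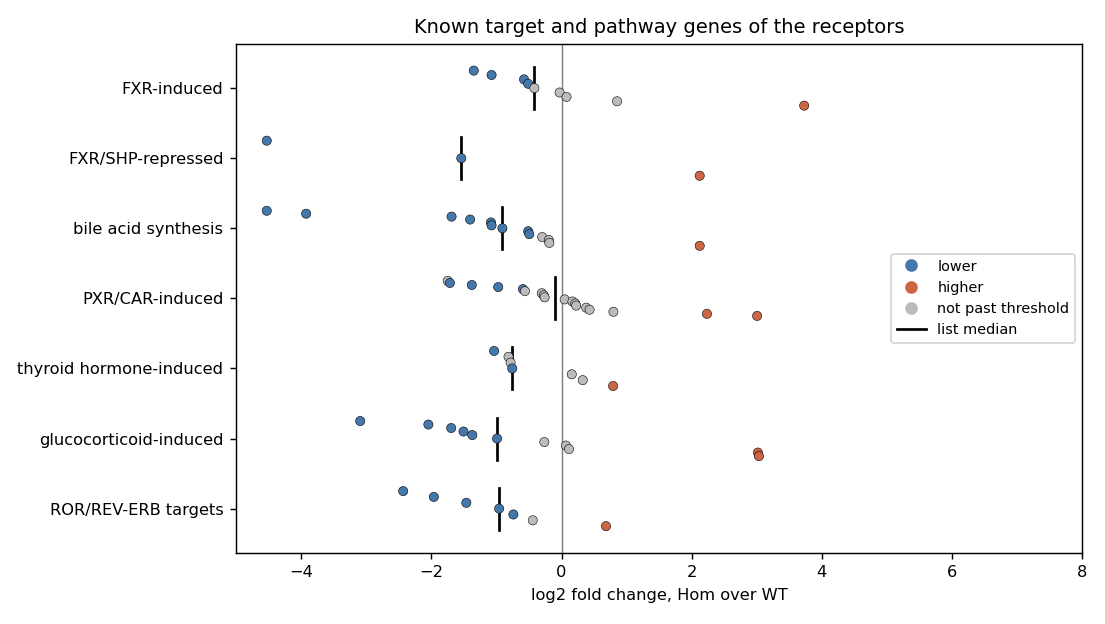
Log2 fold change (Hom over WT, 3 livers per group, TMM factors) of the tested genes of 7 lists, with a point per gene, colour for the call at an adjusted p under 0.05 and a black line at each list's median. Every list holds genes on both sides of 0, with Cyp8b1 at −4.53 and Cyp7a1 at 2.12 in the same list.

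Coregulators act with the receptors on chromatin. The counts below stand beside 20.1% lower and 21.5% higher among all tested genes. Of 10 coactivators, 3 were lower and 0 higher (median −0.18): Ppargc1b (−1.003, adjusted p = 0.0125), Crebbp (−0.46, adjusted p = 0.0156) and Ppargc1a (−0.87, adjusted p = 0.0347). Of 8 corepressors, 1 was lower, Ncor1 (−0.42, adjusted p = 0.0152), and 2 were higher, among them Lcor (0.54, adjusted p = 0.0401), with a median of 0.08. Of 7 chaperones of steroid receptors, 2 were lower, Fkbp4 (−0.56, adjusted p = 0.0150) and Stip1 (−0.58, adjusted p = 0.0388), with a median of −0.26. Crebbp, Ncor1, Fkbp4 and Stip1 turned sign under at least 1 of the 4 other scalings, and of these 7 named genes only Ppargc1b kept its call with every single liver left out. With hepatocyte markers set equal the medians of the 3 lists were 0.60, 0.86 and 0.49.

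Within the rest of the nuclear receptor family, 32 of 37 genes in the table were tested, 10 were lower and 7 higher, and the median log2 fold change was −0.16. These shares were 31.25% lower and 21.9% higher, beside 20.1% and 21.5% of all tested genes. With library size alone 4 were lower and 12 higher, and with hepatocyte markers set equal 4 were lower and 19 higher. The fatty acid receptor Ppara was at 200, 289 and 221 CPM in the WT livers and at 83.0, 105 and 99.7 CPM in the Hom livers, a log2 fold change of −1.30 (adjusted p = 0.00159). This call held under all 4 other scalings and with any single liver left out. Hnf4a, a master regulator of the hepatocyte, had a log2 fold change of −0.69 (adjusted p = 0.00745) that turned to 0.08 with hepatocyte markers set equal. Ppard (−1.15) kept its sign under every scaling but was not called without WT 3, Hom 2 or Hom 3.

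Rxrb (−0.30), the sterol receptor Nr1h3 (−0.35), Nr2c1 (−0.73) and Nr2f6 (−0.35) were also lower, and each turned sign under at least 1 other scaling and lost its call with at least 2 single livers left out in turn. Among the higher receptors, the retinoic acid receptor Rarb was at 4.24, 3.40 and 3.20 CPM in the WT livers and at 16.5, 9.48 and 9.74 CPM in the Hom livers, a log2 fold change of 1.71 (adjusted p = 0.00303). Rarg had a log2 fold change of 0.78, Pparg, the regulator of fat cell differentiation, one of 1.12, and Nr2f2 one of 0.50. These 4 calls held under all 4 other scalings and with any single liver left out. The RXR partners Thra (−0.19, adjusted p = 0.136), the closest relative of Thrb, and Rara (0.09, adjusted p = 0.384) did not pass.

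**Figure D5:**
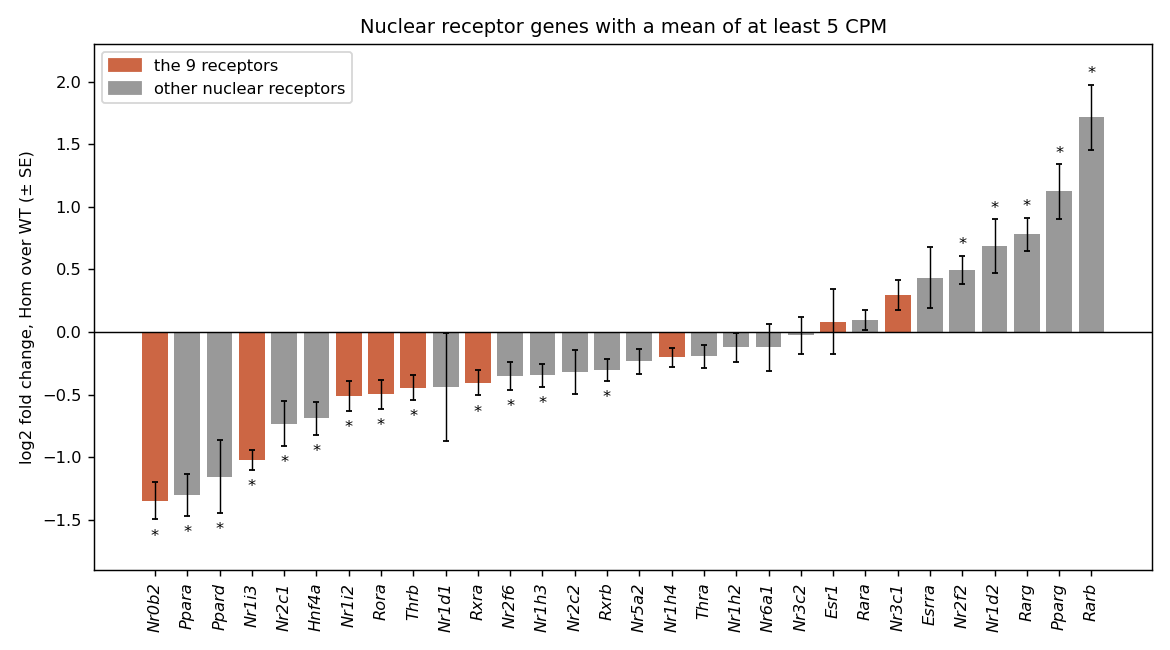
Log2 fold change (Hom over WT, ± standard error, TMM factors, 3 livers per group) of the 9 receptors and 21 other nuclear receptor genes with a mean of at least 5 CPM, with stars for an adjusted p under 0.05. Nr0b2 (−1.35) is the lowest and Rarb (1.71) the highest of the genes plotted.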

How the data were processed

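RNA from 1 liver of each of 3 WT and 3 Hom mice was sequenced on DNBSEQ. The submitters' processing notes name HISAT2 2.0.4, Bowtie2 2.2.5, RSEM 1.2.12 and mm9; strandedness is not given in the sources used here. The authors deposited estimated counts (expected counts, not scaled between livers), FPKM and TPM values for 17975 genes. The 6 deposited mean columns have crossed group names and were not used. Estimated counts were rounded and tested in R 4.3.3 with edgeR 4.0.16 (filterByExpr, TMM, quasi-likelihood, Benjamini-Hochberg over 13805 genes, adjusted p under 0.05). FPKM gave the implied gene lengths and an alternative order of levels, and TPM gave levels and ratios. The other scalings were library size, upper-quartile factors, hepatocyte markers and a loess correction for gene length; DESeq2 1.42.0, count filters, a replicate block, leaving out livers and a minimum fold change were also tried.

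The 9 receptors, 25 other gene lists and motifs were chosen with earlier results of these data known. Named were Nek7, the receptors, called other nuclear receptors averaging at least 5 CPM, the 2 smallest adjusted p in each direction of each receptor-related list, all genes of lists of 5 or fewer, and the 2 genes most like each receptor past the threshold. Abcb11, Baat, Ugt1a1, Abcc2, Npas2, Arntl, Cry1, Ppargc1a, Cyp3a11, Cyp2b10, Thra and Rara lie outside this rule. They were named after their values were seen. Of the cell type and sex lists only counts, sums and medians are given. Some genes the rule names are not reported here. On simulated data, 50.3% of 193 genes changed by 1 on the log2 scale were recovered among 13117 tested, and 0.10% of unchanged genes were called. In that simulation few genes differed, planted in equal numbers up and down, with spread taken from the WT livers. It therefore meets the TMM assumption by construction and cannot test how the choice of scaling affects the receptors.

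WT and Hom livers share the numbers 1, 2 and 3 but are different mice, and same-numbered deviations correlated at −0.08, −0.04 and −0.02, so the main test has no block.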

Additional observations from a re-analysis of the deposited data

How the results depend on the processing

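The direction of 5 receptors rested on the scaling. With library size alone the log2 fold change was 0.25 for Nr1h4, 0.047 for Rxra and 0.017 for Thrb, and with hepatocyte markers set equal it was 0.57, 0.36 and 0.33 for these and 0.25 for Nr1i2 and 0.28 for Rora. Both scalings raise all genes alike, by construction. They gave 2 and 1 lower and 1 and 4 higher of the 9 receptors, against 6 and 0, and 4 and 4 lower and 12 and 19 higher of the other nuclear receptors, against 10 and 7. Of all tested genes, 4.65% and 2.28% were then lower and 47.6% and 72.9% higher, against 20.1% and 21.5%. Upper-quartile factors gave 6 lower and 1 higher receptor, beside 14.9% lower and 25.2% higher of all tested genes. A minimum absolute log2 fold change of 1 left 2 lower receptors, Nr0b2 and Nr1i3, and 5 lower and 3 higher other nuclear receptors, fewer by construction. Of all tested genes, 4.17% were lower and 13.2% higher at that minimum. Esr1, which was not called, turned to −0.0068 with gene length correction and the replicate block, −0.02 without WT 3, −0.25 without Hom 1 and −0.26 without both WT 1 and Hom 1 (chosen after seeing the data), for which the cause was not tested. With single livers left out, 4 to 6 receptors were lower and 0 higher, and 5 to 9 other nuclear receptors were lower and 5 to 8 higher. Of all tested genes, 12.6% to 19.4% were then lower and 14.2% to 21.5% higher.

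The samples share only a number, and the replicate block gave 5 lower receptors, with an adjusted p of 0.0504 for Rxra. With that block 16.0% of all tested genes were lower and 17.3% higher. DESeq2 and both count filters gave 6 lower and 0 higher receptors, beside 14.4% to 20.7% lower and 16.1% to 22.3% higher of all tested genes. Nek7 kept its direction and call under all alternatives. With 3 mice per group and intervals as wide as that of Esr1, small differences are not detectable, and counting error is minor at the 238 or more counts each receptor had per liver.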
